A study of Mus musculus with 2 samples.

Results

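Succinate dehydrogenase, complex II of the respiratory chain, is an enzyme of the inner mitochondrial membrane that belongs to both the tricarboxylic acid (TCA) cycle and electron transport. Its catalytic head is made of the flavoprotein Sdha, which oxidises succinate to fumarate, and the iron-sulfur protein Sdhb, which passes the electrons on. Sdhc and Sdhd anchor the head in the membrane, hold the heme and form much of the site where ubiquinone is reduced. All 4 subunits are encoded in the nucleus. In T cells the complex feeds respiration, and succinate that it leaves unused can inhibit enzymes that depend on 2-oxoglutarate.

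The 4 subunit genes Sdha, Sdhb, Sdhc and Sdhd were taken by gene symbol from the 32285 features of single-cell RNA-seq of mouse regulatory T (Treg) cells, the T cells that restrain immune responses, and each symbol matched 1 row. Cells stained with MitoTracker, a dye that collects in mitochondria, had been sorted by fluorescence into a dye-high population, Mito-high, and a dye-low population, Mito-low. Each population gave 1 library with the 10x Genomics Chromium Single Cell 5′ kit, in which each captured transcript end carries a unique molecular identifier (UMI). No genotype or added treatment is named for either population, and the labels state neither the tissue nor the strain, sex or age of the mice. The genes were chosen by measured values, namely the Sdhd level that had differed between these libraries in an earlier look at the same data. The values below therefore describe these libraries and test nothing, and with 1 library per group there is no replicate check of any difference.

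Barcodes with at least 500 detected genes and at most 20% of UMIs from mitochondrially encoded genes were kept, which left 12217 of 12352 in Mito-high and 11679 of 11901 in Mito-low. Kept cells had a median of 6132 UMIs in Mito-high against 4668 in Mito-low. All 10 Treg markers examined reached at least 10 CPM, counts per 1000000 UMIs, in each library, with a summed level of 4147 CPM in Mito-high cells and 5948 CPM in Mito-low cells. Foxp3 itself was at 25.8 CPM in Mito-high cells and 41.0 CPM in Mito-low cells. Markers of CD8 T cells summed to 9.03 CPM in Mito-high cells and 5.47 CPM in Mito-low cells, and those of B cells to 28.7 CPM in Mito-high cells and 19.0 CPM in Mito-low cells, where 1 of them was at 0. Myeloid markers summed to 4.35 CPM in Mito-high cells and 3.42 CPM in Mito-low cells, erythroid markers to 0.167 CPM in Mito-high cells and 0.264 CPM in Mito-low cells, and both platelet markers were at 0 in both libraries. The markers of natural killer cells summed to 52.7 CPM in Mito-high cells and 66.0 CPM in Mito-low cells, of which 1 gene held nearly all. The long RNA Malat1 took 0.959% of UMIs in Mito-high against 1.81% in Mito-low, and Gm42418, a locus that overlaps ribosomal RNA, 0.146% in Mito-high against 0.402% in Mito-low. The part of these differences in the results below was not tested. The libraries shared 38 barcodes, of which 35 were kept in both.

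The genes lie on 4 chromosomes. In RefSeq's annotation of GRCm38.p6, Sdha is at chr13:74322255-74350240, Sdhb at chr4:140961271-140979198, Sdhc at chr1:171129157-171150640 and Sdhd at chr9:50596340-50603849, on the minus strand. Sdhd starts head to head with Timm8b, an inner membrane import chaperone of mitochondria, which runs on the plus strand at chr9:50603901-50605320. GENCODE places the starts further apart, at chr9:50603812 for Sdhd and chr9:50603910 for Timm8b. The 51 bases between the RefSeq starts belong to the RefSeq promoters of both genes and are shown because the genes differed between the libraries by unequal amounts. They are printed from the minus strand of GRCm38.p6, chr9:50603850-50603900, in the direction in which Sdhd is read, with the reverse complement of the ETS-family motif CCGGAAG in capitals:
Sdhd to Timm8b gap: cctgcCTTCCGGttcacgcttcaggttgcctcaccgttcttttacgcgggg

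Sdhd stood apart from the other subunits. Over all kept cells its level was 57.7 CPM (95% interval 56.1 to 59.3) in Mito-high cells and 22.7 CPM (21.5 to 23.9) in Mito-low cells, from 5186 and 1374 UMIs, a 2.54-fold difference. As a log2 ratio, with Mito-high on top throughout, this was 1.34 (1.26 to 1.43). All intervals in the text are exact and cover counting error only. Among the 5787 genes that reached 20 CPM in either library, 37 had a larger ratio than Sdhd. Of these genes, 3.65% were at least 1.5-fold higher and 10.7% at least 1.5-fold lower in Mito-high, and Sdhd was the 1 subunit of 4 in the first class. That count only restates why the genes were chosen.

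The other anchor, Sdhc, was at 38.3 CPM in Mito-high cells and 31.3 CPM in Mito-low cells, from 3446 and 1892 UMIs, with a log2 ratio of 0.29 (0.21 to 0.38). Sdhc is the only subunit whose transcripts resembled those of other genes at the cut used, and any effect on its counts was not tested. Its GENCODE transcripts share stretches of at least 90 bases at 90% identity or more with transcripts of 41 other genes, 34 of them among the features, whereas those of Sdha, Sdhb and Sdhd share such a stretch with none.

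The catalytic subunits did not follow Sdhd. Sdha was at 65.7 CPM (64.0 to 67.4) in Mito-high cells and 76.0 CPM (73.9 to 78.3) in Mito-low cells, from 5907 and 4602 UMIs, with a log2 ratio of −0.21 (−0.27 to −0.15). Sdhb was at 106 CPM in Mito-high cells and 108 CPM in Mito-low cells, from 9566 and 6540 UMIs, with a log2 ratio of −0.02 (−0.07 to 0.02). The median log2 ratio of all 5787 genes was −0.15, with the central 95% between −1.16 and 0.72, and 3384 of them had a larger ratio than Sdha, 1976 than Sdhb and 633 than Sdhc. Scaling changed what could be said of the catalytic pair: with the median ratio set to 0 Sdhb came to 0.13, while Sdha came to −0.06, Sdhc came to 0.44 and Sdhd to 1.49. With TMM scaling, the trimmed mean of ratios, Sdha was at −0.02 with an interval of −0.08 to 0.03. Summed, Sdha, Sdhb and Sdhc were at 210 CPM in Mito-high cells and 215 CPM in Mito-low cells, with a log2 ratio of −0.03 that turned to 0.12 under the same scaling. All 4 subunits together were at 268 CPM in Mito-high cells and 238 CPM in Mito-low cells, a log2 ratio of 0.17 (0.14 to 0.20).

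**Figure D1:**
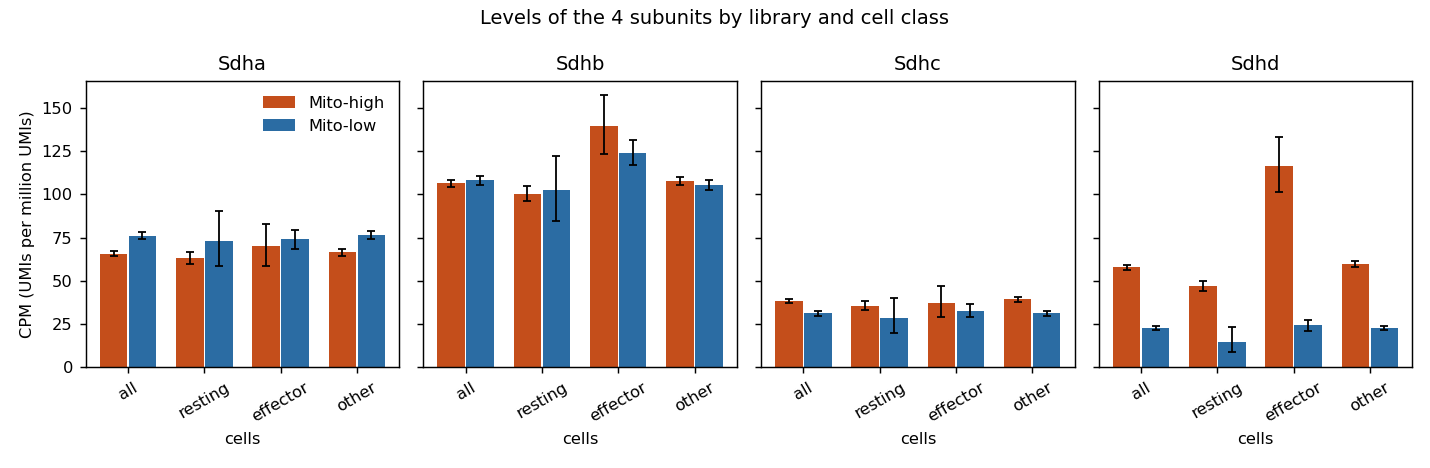
Level of each subunit in CPM (vertical axis) in Mito-high (orange, left bar) and Mito-low (blue, right bar) for all kept cells and for resting, effector and other cells; bars are the UMI sum of 1 library and error bars exact Poisson 95% intervals. The Sdhd bars of Mito-high stand above those of Mito-low in every class, at 117 CPM against 24.1 CPM in effector cells, while the bars of the other 3 subunits differ by less.

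A ratio between subunits of the same cells does not depend on how the libraries are scaled. There were 0.274 Sdhd UMIs per UMI of the other 3 subunits in Mito-high against 0.105 in Mito-low, a log2 ratio of ratios of 1.38 (1.29 to 1.47). Set against 1 subunit at a time it was 1.56 against Sdha, 1.37 against Sdhb and 1.05 against Sdhc. The gap was therefore smallest against the second membrane anchor, and was present against every subunit.

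Put as a make-up of the complex's transcripts, Sdhd gave 21.5% (21.0 to 22.0) of the 24105 subunit UMIs in Mito-high and 9.54% (9.06 to 10.0) of the 14408 in Mito-low. Sdha gave 24.5% in Mito-high against 31.9% in Mito-low, and Sdhb 39.7% in Mito-high against 45.4% in Mito-low. Sdhc kept a nearly even share, 14.3% in Mito-high against 13.1% in Mito-low. Because the shares are parts of the same total, a larger Sdhd share lowers those of the others. In CPM, Sdhb was at 106 in Mito-high against 108 in Mito-low, and Sdhc at 38.3 against 31.3.

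**Figure D2:**
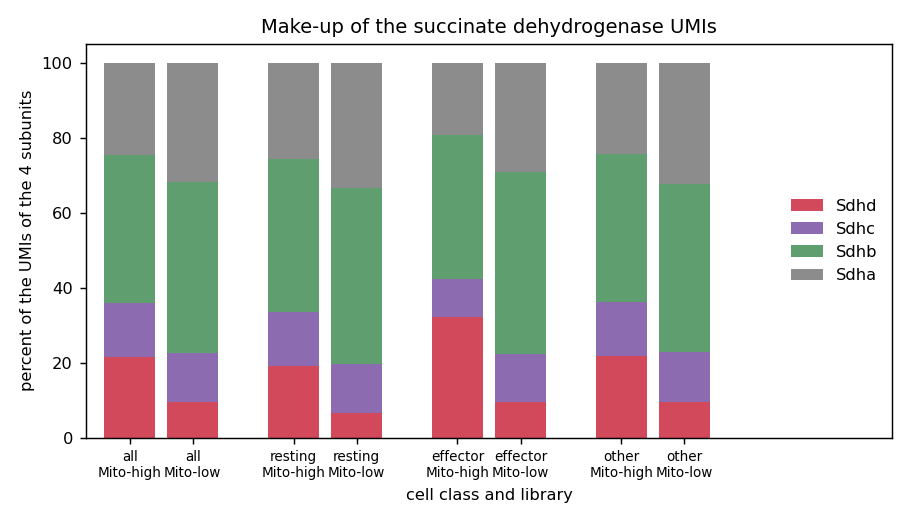
Share of the UMIs of the 4 subunits (vertical axis, percent) that each subunit gave, for all, resting, effector and other cells of Mito-high (left bar of a pair) and Mito-low (right bar). The Sdhd block at the bottom takes 32.1% of the bar in Mito-high effector cells and 9.48% in Mito-low effector cells.

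The libraries differ in which cells they hold, so the subunits were compared inside classes of cells. Resting cells were those with at least 1 UMI of Igfbp4, which encodes a binding protein of insulin-like growth factors. Effector cells had at least 2 of 3 genes detected, the chemokine Ccl5, the anti-inflammatory cytokine Il10 and the receptor Klrg1 of differentiated lymphocytes, and all cells with neither pattern were called other. Resting cells made up 22.7% of Mito-high cells and 1.61% of Mito-low cells (2771 and 188). Effector cells made up 1.40% of Mito-high and 13.1% of Mito-low (171 and 1533), and other cells 76.0% of Mito-high and 85.3% of Mito-low (9281 and 9961). Few cells, 6 in Mito-high against 3 in Mito-low, met both definitions and were counted in both classes. The names stand for these counts of markers and not for cell types, and a deeper cell meets the definitions more easily. Resting cells had a median of 6407 UMIs in Mito-high against 5649.5 in Mito-low, and effector cells 8904 in Mito-high against 5293 in Mito-low.

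In resting cells Sdhd was at 46.9 CPM (44.0 to 49.9) in Mito-high cells and 14.6 CPM (8.51 to 23.4) in Mito-low cells, a log2 ratio of 1.6 (1.0 to 2.47). The Mito-low value rests on 17 UMIs. Of 5440 genes at 20 CPM or more in these cells 16 had a larger ratio, and 3.75% were at least 1.5-fold higher and 6.25% lower in Mito-high.

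In effector cells Sdhd was at 117 CPM (102 to 133) in Mito-high cells and 24.1 CPM (21.1 to 27.5) in Mito-low cells. They gave 217 and 227 UMIs, so the 171 Mito-high effector cells held nearly as many Sdhd UMIs as the 1533 Mito-low ones. The log2 ratio was 2.27 (2.0 to 2.55), a 4.83-fold difference, and 45 of 6012 genes had a larger ratio. The interval overlapped that of resting cells. At 4000 to 6000 UMIs the intervals of the resting ratio, 2.14 (0.85 to 5.78), and the effector ratio, 1.40 (0.23 to 2.20), overlapped too. There the Mito-low resting level was only 5.62 CPM. Among effector cells of all depths 10.3% of the 6012 genes exceeded 1.5-fold in the Mito-high direction and 12.4% in the Mito-low direction.

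In the other cells, the bulk of both libraries, Sdhd was at 59.6 CPM (57.8 to 61.5) in Mito-high cells and 22.7 CPM (21.4 to 24.0) in Mito-low cells, a log2 ratio of 1.40 (1.30 to 1.49). Of 5765 genes 32 had a larger ratio, 3.5% were at least 1.5-fold higher and 9.14% lower. Ordered by level, Sdhd was highest in Mito-high effector cells, followed by Mito-high other, Mito-high resting, Mito-low effector, Mito-low other and Mito-low resting cells. The intervals of the 3 Mito-high classes did not overlap each other or any of Mito-low. The intervals of the 3 Mito-low classes all overlapped each other.

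The other subunits differed less inside the classes. Sdha had log2 ratios of −0.22 in resting, −0.07 in effector and −0.21 in other cells, and Sdhb −0.04, 0.18 and 0.03 in the same classes. Sdhc had 0.29 in resting, 0.20 in effector and 0.34 in other cells. In resting and effector cells the intervals of all 3 included 0. Relative to their sum, Sdhd had a log2 ratio of ratios of 1.72 (1.0 to 2.53) in resting, 2.17 (1.86 to 2.49) in effector and 1.39 (1.29 to 1.5) in other cells. Its share of subunit UMIs was 19.1% in Mito-high against 6.69% in Mito-low resting cells, 32.1% in Mito-high against 9.48% in Mito-low effector cells, and 21.9% in Mito-high against 9.62% in Mito-low other cells.

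**Figure D3:**
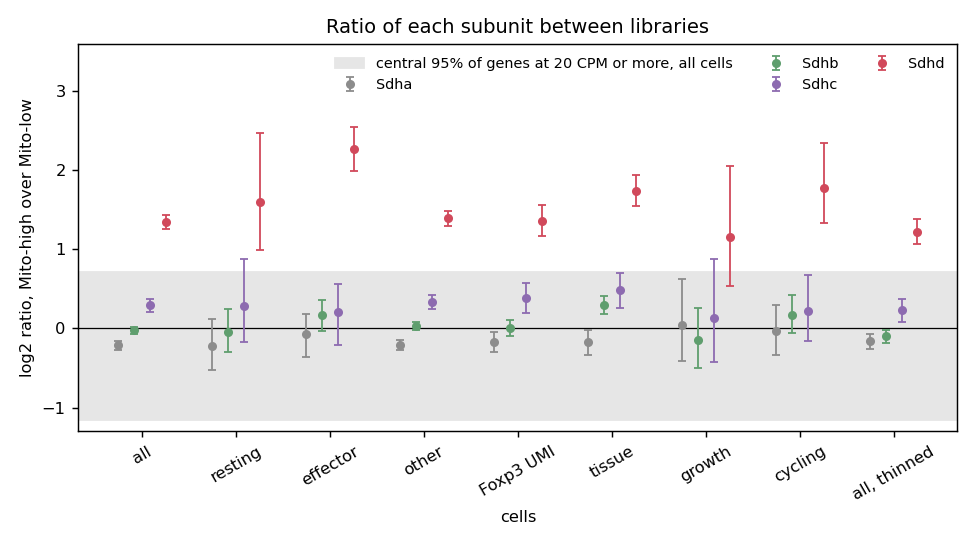
Log2 ratio, Mito-high to Mito-low (vertical axis) of each subunit in all kept cells, in 7 classes of cells and in all cells thinned to 2000 UMIs (horizontal axis), where growth stands for cells with at least 2 of Eno3, Lad1 and Mettl1 and tissue for cells with at least 2 of S100a4, Ccr2 and Il1rl1; points are ratios of 1 library to 1 library, bars exact 95% intervals, and the grey band the central 95% of genes at 20 CPM or more in all cells. The Sdhd points lie between 1.16 and 2.27, above the band, and those of the other subunits lie within it.

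The libraries also differ in dividing cells. Cells with at least 2 of 6 proliferation markers made up 6.92% of Mito-high cells and 1.11% of Mito-low cells, and 28.1% of Mito-high and 1.17% of Mito-low effector cells. The 6 markers summed to 239 CPM in Mito-high cells and 44.6 CPM in Mito-low cells. Within these cycling cells Sdhd was at 102 CPM in Mito-high cells and 28.9 CPM in Mito-low cells, a log2 ratio of 1.78 (1.34 to 2.35). With cycling cells left out, Sdhd was at 50.0 CPM in Mito-high cells and 22.6 CPM in Mito-low cells (log2 ratio 1.15). Inside the classes, where leaving them out was chosen after seeing the data, the log2 ratio was then 1.47 in resting, 2.06 in effector and 1.19 in other cells.

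Further classes came from genes that had marked groups of cells in an earlier look at these data. Cells with at least 2 of the genes Eno3, Lad1 and Mettl1 were 4.29% of Mito-high cells and 0.488% of Mito-low cells, and held Sdhd at 80.6 CPM in Mito-high cells and 34.0 CPM in Mito-low cells (log2 ratio 1.16, 0.53 to 2.06). Cells with at least 2 of S100a4, Ccr2 and Il1rl1, genes of Treg cells in tissues, were 6.45% of Mito-high cells and 17.4% of Mito-low cells, with Sdhd at 89.1 CPM in Mito-high cells and 26.6 CPM in Mito-low cells (1.74, 1.55 to 1.94). Among cells with a UMI of Foxp3, the transcription factor that defines the Treg lineage, Sdhd was at 59.6 CPM in Mito-high cells and 23.2 CPM in Mito-low cells (1.36, 1.17 to 1.56). Sdhd was higher in Mito-high in each of these classes, and relative to the other 3 subunits the log2 ratio of ratios was 1.25 in the first, 1.56 in the second and 1.35 among cells with Foxp3. In Mito-low the first class held 16 Sdhd UMIs in 57 cells. Cycling cells were 15.1% of Mito-high against 0% of Mito-low cells in the first class, and 25.8% against 1.63% in the second. Median UMIs were 11482.5 in Mito-high against 7806 in Mito-low in the first, and 7999.5 against 5143 in the second. These classes were not run without cycling cells.

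Because Mito-high cells gave more UMIs each, the share of cells with a UMI favours them for any gene. A Sdhd UMI was found in 29.5% (28.7 to 30.4) of Mito-high cells and 10.9% (10.4 to 11.5) of Mito-low cells. Of the cells with Sdhd, 2631 had 1 UMI, 640 had 2 and 337 had 3 or more in Mito-high, against 1189, 76 and 10 in Mito-low. Sdha was found in 35.1% of Mito-high cells and 30.9% of Mito-low cells, Sdhb in 48.3% of Mito-high cells and 40.2% of Mito-low cells, and Sdhc in 22.6% of Mito-high cells and 14.5% of Mito-low cells. All 4 subunits were thus detected in more of the Mito-high cells. Every T cell carries this enzyme, so no cell type in these data could show how many cells free RNA alone would mark.

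Each cell was therefore thinned at random to 2000 UMIs, which lost the shallower cells, 139 of Mito-high and 491 of Mito-low. At this even depth 9.55% (9.04 to 10.1) of Mito-high cells and 4.25% (3.89 to 4.65) of Mito-low cells had a Sdhd UMI. The catalytic subunits turned round, with Sdha in 12.4% (11.8 to 13.0) of Mito-high cells and 13.7% (13.1 to 14.4) of Mito-low cells, and Sdhb in 18.0% (17.3 to 18.7) of Mito-high cells and 19.2% (18.4 to 19.9) of Mito-low cells, with intervals that do not overlap for Sdha and overlap for Sdhb. Sdhc stayed higher in Mito-high, in 7.06% of cells against 6.03% in Mito-low. In CPM of the thinned cells Sdhd was at 50.5 in Mito-high against 21.6 in Mito-low, a log2 ratio of 1.22 (1.07 to 1.38), and relative to the other 3 subunits it was 1.29.

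Thinned values of the classes were less even. Effector cells kept a log2 ratio of 2.51 (1.91 to 3.06), with Sdhd at 129 CPM in Mito-high cells and 22.8 CPM in Mito-low cells, and other cells one of 1.32 (1.15 to 1.49), at 53.8 CPM in Mito-high cells and 21.5 CPM in Mito-low cells. In resting cells Sdhd was at 35.0 CPM in Mito-high cells and 19.1 CPM in Mito-low cells, and the log2 ratio of 0.69 had an interval of −0.20 to 2.20. At this depth a difference in resting cells was not detectable beyond counting error.

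Cells of like depth gave a second view without thinning. Sdhd was at 33.6 CPM in Mito-high cells and 15.1 CPM in Mito-low cells among cells of 2000 to 3000 UMIs (log2 ratio 1.17). At 3000 to 4000 UMIs it was at 38.7 CPM in Mito-high cells and 19.5 CPM in Mito-low cells (0.99), and at 4000 to 6000 UMIs at 41.1 CPM in Mito-high cells and 22.6 CPM in Mito-low cells (0.86). It was at 48.3 CPM in Mito-high cells and 26.6 CPM in Mito-low cells at 6000 to 8000 UMIs (0.86), at 58.5 CPM in Mito-high cells and 22.6 CPM in Mito-low cells at 8000 to 12000 (1.37), and at 84.9 CPM in Mito-high cells and 25.5 CPM in Mito-low cells in deeper cells (1.72). In Mito-high the Sdhd level was thus higher in each deeper bin. In Mito-low it also rose, from 15.1 CPM to 26.6 CPM at 6000 to 8000 UMIs, and was at 22.6 and 25.5 CPM in the deeper bins. Below 2000 UMIs, 2 Sdhd UMIs in Mito-high against 10 in Mito-low were too few for a comparison.

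In Mito-high the other subunits ranged over the same bins from 47.5 to 75.3 CPM for Sdha, 90.4 to 127 CPM for Sdhb and 31.4 to 49.6 CPM for Sdhc, each highest in the deepest bin. Relative to their sum, the log2 ratio of ratios of Sdhd was 1.49, 1.09, 1.05, 0.98, 1.46 and 1.54 from the shallowest of these bins to the deepest. In cells of 12000 UMIs or more Sdhc was also higher, at 49.6 CPM in Mito-high cells and 31.5 CPM in Mito-low cells (log2 ratio 0.65, 0.40 to 0.92). In the other 5 bins its ratio lay between 0.06 and 0.25 and every interval included 0. Sdhd was also higher in Mito-high in each combination of class and depth examined. In effector cells the log2 ratio of Sdhd was 1.40 at 4000 to 6000, 1.99 at 6000 to 8000 and 2.55 at 8000 to 12000 UMIs, and in other cells 0.93, 0.98 and 1.37 at the same depths. In resting cells it was 2.14 (0.85 to 5.78), 0.60 (−0.33 to 2.28) and 1.58 (0.42 to 4.28), and the interval of the middle bin included 0. The Mito-low side of these bins held few counts. Sdhd was 2.47% of 81, 10.5% of 57 and 5.45% of 55 subunit UMIs there.

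**Figure D4:**
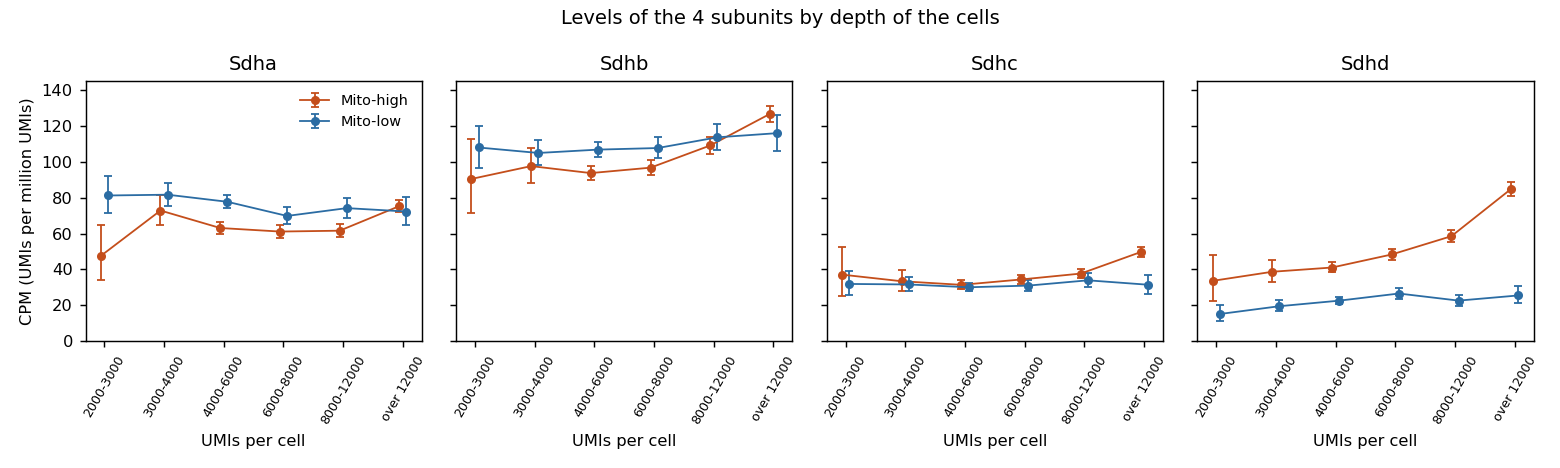
Level of each subunit in CPM (vertical axis) among cells binned by UMIs per cell (horizontal axis) in Mito-high (orange) and Mito-low (blue), with exact Poisson 95% intervals; each point is a sum over the cells of 1 library. Sdhd lies higher in Mito-high in all 6 bins and reaches 84.9 CPM in the deepest, against 25.5 CPM in Mito-low, whereas the lines of Sdha and Sdhb cross.

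The neighbours of Sdhd on chromosome 9 did not share its difference. Timm8b, parted from Sdhd in RefSeq by the 51 bases printed above, was at 56.5 CPM in Mito-high cells and 49.6 CPM in Mito-low cells, from 5083 and 3004 UMIs, with a log2 ratio of 0.19 (0.12 to 0.25). Its ratio was 0.36 in resting, 0.66 in effector and 0.30 in other cells, where Sdhd had 1.6, 2.27 and 1.40. Il18, a cytokine gene on the other side of Sdhd at chr9:50554700-50581841, was at 1.42 CPM in Mito-high cells and 3.27 CPM in Mito-low cells (128 and 198 UMIs, log2 ratio −1.20, −1.53 to −0.87).

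RefSeq promoters of GRCm38.p6, from 250 bases before to 50 after a start, were listed for Sdha, Sdhb and Sdhd and searched on both strands. The half-site of NRF1, a regulator of nuclear genes for respiration, TGCGCA, matched 2 times in the Sdha promoter and 2 times in that of Sdhd, and is found in 7.79% of 32544 promoters. The ETS motif CCGGAAG matched 1 time each in the promoters of Sdhb and Sdhd (8.91% of promoters), and the SP1 motif GGGCGG 3 times in Sdhb and 1 time in Sdhd (35.9%). CACGTG, AAGATGGC and the E2F motif TTTGGCGC or TTTCCCGC had no match in these promoters, and 7.17%, 2.77% and 1.58% of promoters hold them. No motif was found in all 3.

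Likeness of pattern was measured over 6 points, the log2(CPM + 1) of resting, effector and other cells in each library, centred on the mean of the gene. Of 5786 genes at 20 CPM or more, the 5 nearest to Sdhd were Mcm5 at a distance of 0.36, Gmnn at 0.37, Rfc4 at 0.39, Dut at 0.42 and Mki67 at 0.44, against a median distance of 2.48. The distances take no account of counting error. At the point of Mito-low resting cells Sdhd had 17 UMIs, and the 5 genes ranged from 6.02 CPM for Rfc4 to 53.3 CPM for Dut. Their order is therefore uncertain. Among the partner subunits, Sdhc had rank 1002 in nearness at a distance of 2.06, Sdhb rank 1386 at 2.18 and Sdha, past the median distance, rank 3124 at 2.52. Mki67 is 1 of the 6 proliferation markers used above. With cycling cells left out, an alternative chosen after seeing the data, Gmnn had a log2 ratio of 0.04 and was 180th in likeness, Dut had 0.35 and was 7th, and Mcm5, Rfc4 and Mki67 were below 20 CPM in both libraries. The nearest genes were then H2-T23 at 0.67, Stmn1 at 0.90, Rpa3 at 0.95, Pycard at 1.03 and Mcm3 at 1.06.

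Genes that build, feed or depend on the complex were read from lists, counting genes that reached 10 CPM in either library. Their ratios are over all kept cells unless a class is named, and some list medians had the other sign inside a class. Over all 7683 such genes 4.11% were at least 1.5-fold higher and 11.4% at least 1.5-fold lower in Mito-high, with a median log2 ratio of −0.15. Setting that centre to 0, or scaling by TMM, which adds 0.19 to every ratio, turned the negative medians of the assembly factors, pyruvate dehydrogenase and iron-sulfur lists below to positive ones and no other list median. Both scalings also put genes such as Fh1, Etfa and Hscb past 1.5-fold higher and brought Pdp1, Alad and Egln2 within 1.5-fold. The SDH assembly factors did not follow Sdhd, with 3 of 4 measured and none 1.5-fold apart. Sdhaf1, which helps insert iron-sulfur clusters into Sdhb, was at 149.9 CPM in Mito-high cells and 163.8 CPM in Mito-low cells (log2 ratio −0.13). Sdhaf2, which attaches FAD to Sdha, was at 33.7 CPM in Mito-high cells and 37.2 CPM in Mito-low cells (−0.14), and Sdhaf4, which helps join Sdha to Sdhb, at 27.5 CPM in Mito-high cells and 26.6 CPM in Mito-low cells (0.05). Sdhaf3, which protects Sdhb as it matures, was below the filter with 7.81 CPM in Mito-high cells and 6.41 CPM in Mito-low cells (0.28). The median of the 3 was −0.13, and inside the classes 0.36 in resting, −0.29 in effector and −0.003 in other cells.

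The TCA cycle outside the complex had 14 measured genes, of which 1 was 1.5-fold higher, none lower and 11 above 0, with a median log2 ratio of 0.10. Idh2, the mitochondrial NADP-dependent isocitrate dehydrogenase, was the higher one, at 18.5 CPM in Mito-high cells and 10.4 CPM in Mito-low cells (0.83). Fh1, fumarase, which takes the product of the complex, had a ratio of 0.56. Cs, citrate synthase, had 0.36 and Suclg1, a subunit of the succinyl-CoA ligase that makes succinate, 0.35. Of 8 measured genes around pyruvate dehydrogenase, 1 was 1.5-fold lower, the phosphatase subunit Pdp1 at −0.65, and the median was −0.03.

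Downstream of the ubiquinone site, the 10 subunits of complex III all lay within 1.5-fold, with a median of 0.07 and Cyc1, cytochrome c1, at 0.31. The 4 measured genes of other dehydrogenases that reduce ubiquinone also lay within 1.5-fold, with a median of 0.19 and Etfa, of the electron transfer flavoprotein, at 0.46. Ubiquinone synthesis had 9 measured genes with a median of −0.25 and went both ways. Coq8a, an atypical kinase-like protein of the pathway, was at 14.1 CPM in Mito-high cells and 30.4 CPM in Mito-low cells (−1.11), and Coq7, a hydroxylase of the pathway, at 12.7 CPM in Mito-high cells and 6.72 CPM in Mito-low cells (0.92). Inside the classes Coq8a had 0.06 in resting, −0.69 in effector and −0.92 in other cells.

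The cofactor lists gave no uniform picture. Of 16 measured genes of iron-sulfur cluster assembly 1 was 1.5-fold higher, the ferredoxin Fdx1 at 0.59, and the median was −0.08, with Isca1, which acts late in the pathway, at −0.58 and Hscb, a co-chaperone, at 0.53. Of 5 measured heme synthesis genes 1 was 1.5-fold lower, Alad, the second enzyme of the pathway, at −0.72, with a median of −0.29. Inside the classes the heme median was 0.33 in resting, 0.62 in effector and −0.24 in other cells, and Alad had 0.50, −0.11 and −0.55. The 4 genes of FAD supply lay within 1.5-fold with a median of −0.41, led by the riboflavin transporter Slc52a2 at −0.58. Of the regulators of the complex only Trap1, a mitochondrial chaperone, was measured, at 24.9 CPM in Mito-high cells and 20.2 CPM in Mito-low cells (0.30). In the list of succinate transport, sensing and other sources 5 genes were measured, with a median of −0.48, the value of Hif1a. No transporter or receptor of succinate was among the 5, which were mostly genes of oxygen sensing. Of them 2 were 1.5-fold lower: Egln3 at 10.4 CPM in Mito-high cells and 28.8 CPM in Mito-low cells (−1.47) and Egln2 at −0.61. Both encode oxygen-sensing prolyl hydroxylases that succinate can inhibit. Hif1a, the factor they act on, was at 223 CPM in Mito-high cells and 311 CPM in Mito-low cells (−0.48), with 0.25 in resting, −0.32 in effector and −0.41 in other cells. In none of these lists did a measured gene reach the ratio of Sdhd in its direction over all kept cells. Sdhd was chosen for that difference, so this restates the choice.

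**Figure D5:**
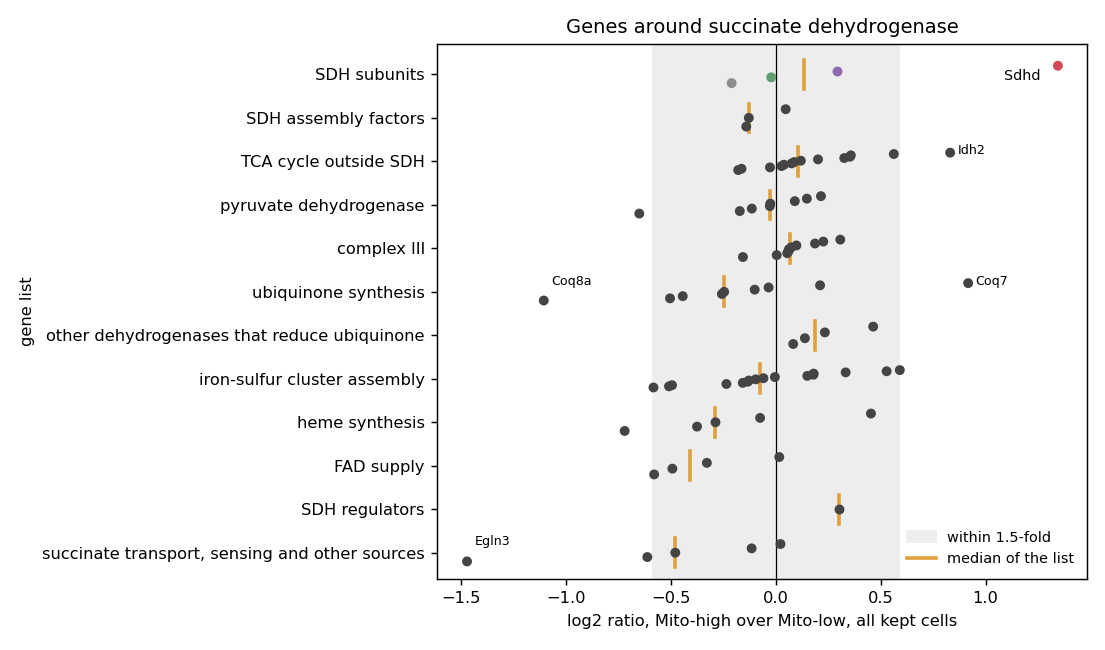
Log2 ratio, Mito-high to Mito-low, in all kept cells (horizontal axis) for every gene at 10 CPM or more in lists around succinate dehydrogenase (vertical axis); points are genes, orange lines list medians and the grey band ratios within 1.5-fold. Sdhd at 1.34 lies to the right of all other points, and Egln3 at −1.47 is the lowest.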

How the data were processed

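The deposited values were raw UMI counts per gene and barcode of 2 libraries, 1 Mito-high and 1 Mito-low, written by Cell Ranger 7.1.0 per the file headers. Per the submitters' processing notes, the genome was mm10 and Seurat 4.3.0.1 was used; for the annotation release, intronic reads and any barcode filter, details were not given in the sources used here. Kept cells held 89896278 UMIs in Mito-high against 60526210 in Mito-low.

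No doublets were called or removed. UMIs were summed per library and cell class and scaled to CPM; ratios add a pseudocount of 1 UMI to each sum. Intervals are exact Poisson for levels, conditional binomial for ratios, conditional odds ratio for subunit ratios and Clopper-Pearson for shares. Ratios of 1.5-fold only describe size. Thinning drew UMIs without replacement. Software was Python 3.11.15 with numpy 2.4.6, scipy 1.17.1 and pandas 2.3.3, edgeR 4.0.16 for TMM factors, and blastn 2.17.0. The interval code was tested on simulated data.

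The subunits, cell classes and gene lists were chosen with earlier results of these data known. Named genes were the 4 subunits, all assembly factors, up to 4 genes per list with the largest absolute ratio, the 5 genes nearest to Sdhd in pattern and its chromosomal neighbours; 1 named gene is not reported here. Scaling, cell filters, depth, doublet-sized cells, cycling cells, class definitions and cell weights were varied.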

Additional observations from a re-analysis of the deposited data

How the results depend on the processing

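Sdhd stayed higher in Mito-high under each alternative run, overall and in each class, but its size moved. Over all cells its log2 ratio was 1.53 with TMM scaling, 1.49 with the median ratio at 0, 1.48 without mitochondrial, ribosomal and receptor genes, 0.86 in cells of 4000 to 6000 UMIs, 1.17 without cells above 15000 UMIs, 1.15 without cycling cells, 1.22 thinned, 1.20 with cells and 1.91 with classes weighing alike. The sum of the other 3 subunits turned positive with TMM scaling (0.16), the median at 0 (0.12), without those genes (0.10), in Foxp3 cells (0.010) and with classes weighing alike (0.038). It was −0.19 at 4000 to 6000 UMIs, −0.10 both without deep and without cycling cells, −0.068 thinned and −0.11 with cells weighing alike. Relative to that sum, Sdhd had 1.05 at 4000 to 6000 UMIs, 1.27 without deep cells, 1.25 without cycling cells and 1.87 with classes alike. Sdhb also changed sign, to 0.17 with TMM, 0.13 with the median at 0, 0.11 without those genes, 0.01 in Foxp3 cells and 0.09 with classes alike, while Sdha and Sdhc kept theirs, though Sdha was −0.02 with TMM, with an interval of −0.08 to 0.03, and Sdhc was 0.06 at 4000 to 6000 UMIs, with an interval of −0.09 to 0.22.

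With classes called again on thinned cells Sdhd had 0.47 in resting cells, with an interval that includes 0, 1.94 in effector and 1.29 in other cells, and 0.78 in resting cells relative to the other 3. At 4000 to 6000 UMIs it had 1.40 in effector and 0.93 in other cells. Relative to the other 3 it had 2.99 (1.065 to 6.07) in resting, 1.49 (0.29 to 2.58) in effector and 1.10 in other cells. Without cycling cells the other cells gave 1.19, or 1.26 relative to the other 3. The gap in the share of cells with a Sdhd UMI, 18.6 percentage points as measured, was 5.30 after thinning to 2000 and 2.94 after thinning to 1000 UMIs. Genes 1.5-fold apart were 14.3% at 20 CPM, 15.5% at 10 CPM and 35.7% with no filter. The causes of these shifts were not tested.

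No paired analysis was possible because each group has 1 library; leaving out a library was not run because it would leave a group with none. In Mito-low resting cells, 188 in number, Sdhd had 17 UMIs.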

Other observations

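Genes outside the size filter or the naming rule are given here as values and were chosen after their values were seen. Acod1, which makes itaconate, an inhibitor of succinate dehydrogenase, had 67 UMIs in Mito-high against 272 in Mito-low, which is 0.745 CPM in Mito-high cells and 4.49 CPM in Mito-low cells. Sucnr1, the succinate receptor, and Pdk4, a kinase of pyruvate dehydrogenase, had 0 UMIs in both libraries, a count that allows up to 3 UMIs each.

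The genes nearest in pattern to the other subunits were closer to them than any gene was to Sdhd. Rbm42 was nearest to Sdha at a distance of 0.055, Smarcc1 to Sdhb at 0.072 and Ssbp1, the mitochondrial single-stranded DNA-binding protein, to Sdhc at 0.043.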
